A study of Mus musculus with 2 samples.

Results

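The perilipins and the enzymes that fill and empty lipid droplets were examined in ovaries of PNA (prenatally androgenized) and control mice. The set was chosen by gene symbol and had 10 members: the droplet coat genes Plin1, Plin2, Plin3, Plin4 and Plin5, the lipase gene Pnpla2 with the gene of its coactivator, Abhd5, the monoglyceride lipase gene Mgll, and the acyltransferase genes Dgat1 and Dgat2. Of these, 9 matched at least 1 probe set by symbol, with 18 probe sets in all, among 20753 genes measured by the chip. Plin1 matched none and is not analysed here. The set was proposed with the ratios of these arrays known, so all values of its members are a description.

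Ovarian RNA was hybridised to the Affymetrix Mouse Genome 430 2.0 chip, on which a set of short oligonucleotides, a probe set, reads 1 transcript or several similar ones. PNA mice were female offspring of ICR dams injected under the skin with DHT (dihydrotestosterone, which unlike testosterone is not aromatized to estrogen), 350 µg in 70 µl of sesame oil each day from gestation day 16 to 18. Control mice were female offspring of ICR dams given the sesame oil alone, and the labels place removal of the ovaries on diestrus in both groups. The same labels name Bouin's fixation of the ovaries as well as Trizol extraction of RNA, and do not say which ovaries were fixed. Each group held 5 ovaries and was read on 1 array, so no value below has a replicate error and no test was run. The sources used here do not give the age of the offspring on the arrays or the way in which RNA of the 5 ovaries was combined.

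A lipid droplet is a core of triglyceride and cholesteryl ester inside a single layer of phospholipid, with perilipins on its surface. Perilipins govern the access of lipases to the core. Adipose triglyceride lipase, the product of Pnpla2, removes the first fatty acid from a triglyceride with the help of ABHD5, hormone-sensitive lipase removes the next, and monoglyceride lipase removes the last. DGAT1 and DGAT2 carry out the final step of triglyceride synthesis. In the ovary, droplets of steroidogenic cells, above all luteal and theca cells, store the cholesteryl ester that supplies cholesterol for steroid hormones.

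Plin5 and Plin4 were the members with a lower signal in PNA ovaries, and none was higher, when a member was called at a fold change of at least 1.5 (0.585 on the log2 scale). A gene was read by its brightest probe set and had to exceed a floor, the 40th percentile of the array, in 1 group or both. All 9 measured members exceeded it on both arrays. Lower signals were thus found for 2 members, higher signals for 0, and the other 7 lay between log2 ratios of -0.29 and 0.35. Over all 14117 genes above the floor, 2.16% were lower and 2.49% were higher. On the log2 scale, the median PNA over control ratio was -0.19 over the 9 members and -0.01 over all genes, of which the 5th percentile was -0.38 and the 95th was 0.42. Since the whole ovary was sampled, fewer cells of a type and less RNA per cell cannot be told apart in any of these signals.

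**Figure D1:**
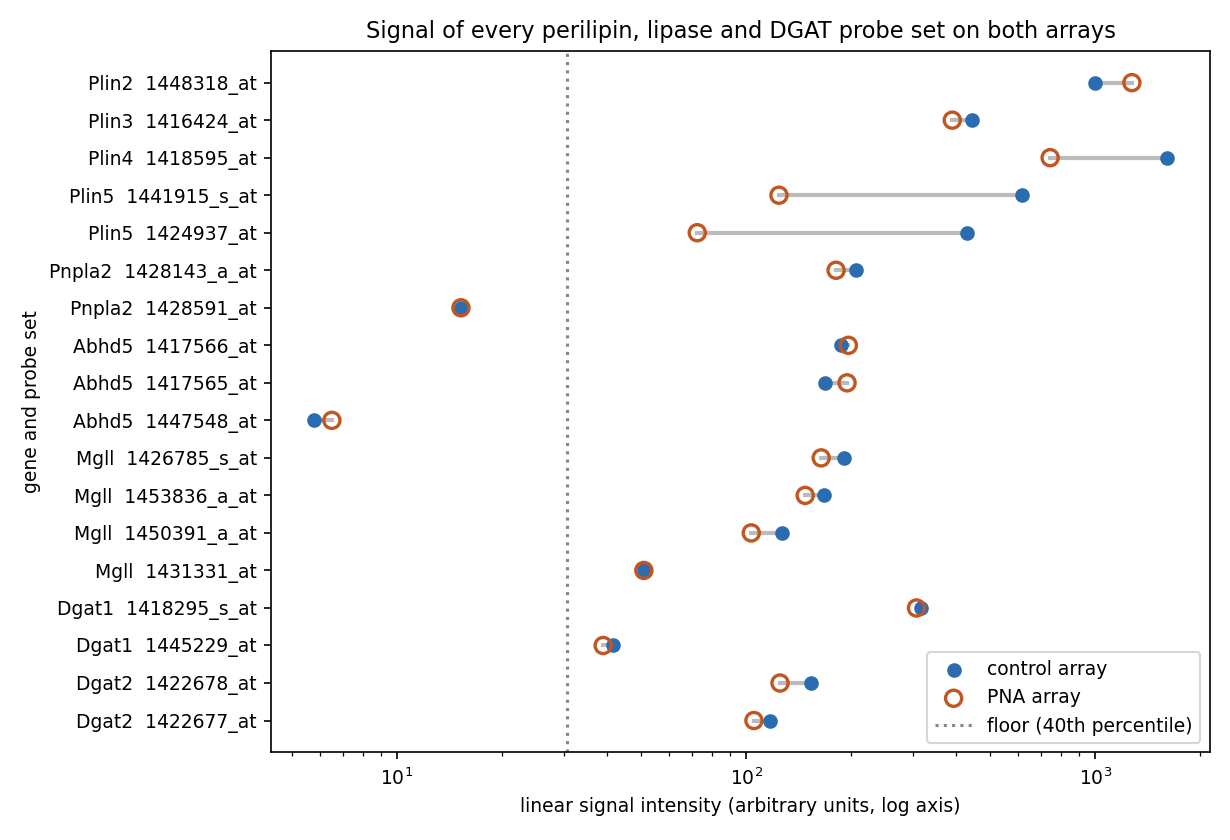
Linear signal intensity (arbitrary units, log axis) of all 18 probe sets of the members, with the control array as filled points, the PNA array as open circles and the floor as a dotted line. The PNA circle lies far to the left of the control point for both Plin5 probe sets and for Plin4, while the other probe sets lie close together on the 2 arrays.

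Plin5 encodes perilipin 5, a coat protein best known from heart, liver and skeletal muscle, where it binds ATGL and ABHD5 and holds droplets close to mitochondria. Its brightest probe set, 1441915_s_at, read 615 in the control group and 124 in the PNA group. That signal was 4.96-fold lower in PNA ovaries, a log2 ratio of -2.31, at rank 16 from the lowest of 14117 genes. The other Plin5 probe set, 1424937_at, read 429 in the control group and 72.4 in the PNA group, which was 5.92-fold lower (log2 ratio -2.57). Both probe sets stayed above the floor of 30.6 on the PNA array, which is a percentile of all signals and not a detection call. They are not independent readings, because the 271 bases aligned by 1441915_s_at (chr17:56111602-56111872, minus strand) lie inside the alignment of 1424937_at (chr17:56111600-56117298, minus strand). Of 115 genes that were lower and had at least 2 probe sets above the floor, 54 were lower on every such probe set, as Plin5 was.

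Plin4 encodes perilipin 4, a coat protein with a long repeat region that is abundant in adipocytes and covers small, newly formed droplets. Its single probe set, 1418595_at (chr17:56100590-56109803, minus strand), read 1606 in the control group and 742 in the PNA group. The PNA signal was 46.2% of the control signal, 2.16-fold lower, with a log2 ratio of -1.11 at rank 92 from the lowest. Plin5 minus Plin4, on the brightest probe sets, gave a difference in log2 ratio of -1.20.

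The other measured perilipins lay within 1.5-fold. Plin2, which encodes the coat protein found on droplets of nearly all cell types, was read by 1448318_at (chr4:86656563-86670035, minus strand) at 1001 in control and 1273 in PNA ovaries. Its log2 ratio of 0.35 was the highest among the members, with 93.2% of all genes at or below it. Plin3 encodes a coat protein that moves between the cytosol and new droplets. Its probe set 1416424_at (chr17:56278959-56292873, minus strand) read 442 in control and 389 in PNA ovaries, a log2 ratio of -0.18. Within the family, then, the PNA signal was above the control signal for Plin2 alone, below it by less than 1.5-fold for Plin3, and below it by more than 2-fold for Plin4 and Plin5.

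**Figure D2:**
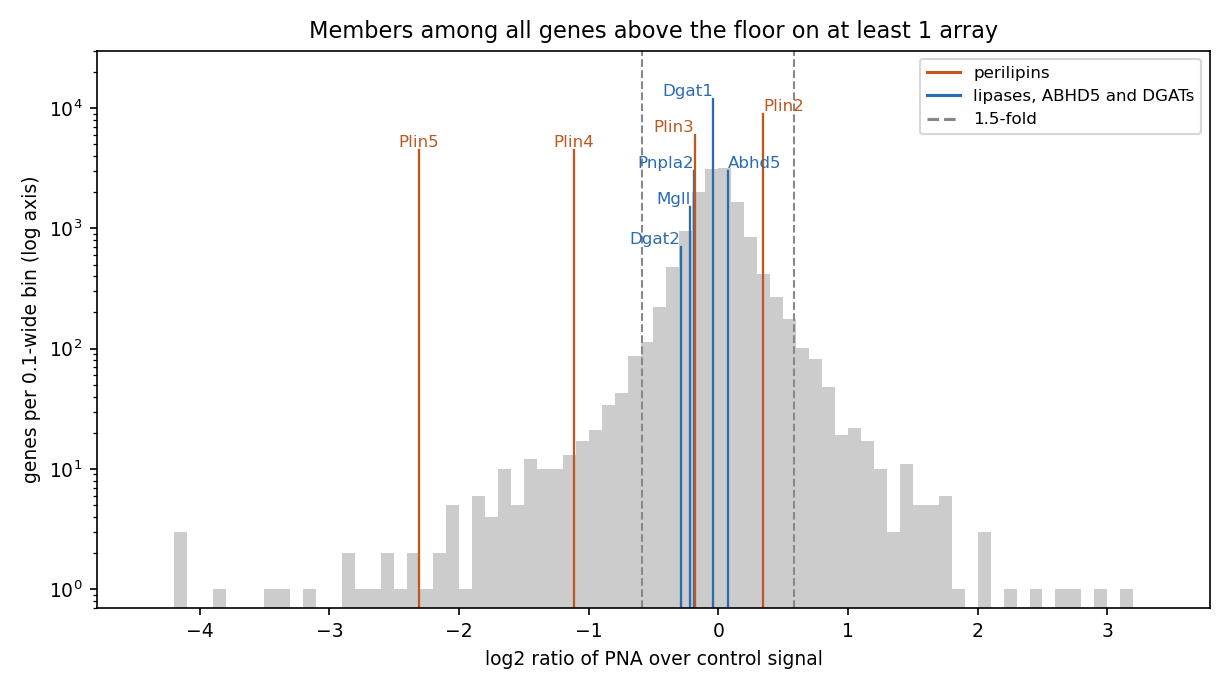
Number of genes per 0.1-wide bin of the log2 ratio of PNA over control (log axis) for the 14117 genes that exceeded the floor, with each member marked by a line and the 1.5-fold limits dashed. Plin5 at -2.31 and Plin4 at -1.11 lie in the lower tail, and the remaining 7 members lie between the limits.

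Plin3, Plin4 and Plin5 lie on the same strand of chromosome 17 in the deposited probe set alignments. These name no genome build, but 97.5% of 34754 alignments, and all 18 of the members, overlapped the position of their gene in GRCm38.p6. The Plin4 and Plin5 alignments were 1796 bases apart, and 161.66 kb separated Plin5 from Plin3. The sequences just upstream of the starts of these 3 genes are shown, since this cluster holds both lowered members and a member that was not. They are the 250 bases before a RefSeq transcript start (GRCm38.p6, chr17:56117549-56117798 for Plin5, chr17:56109783-56110032 for Plin4 and chr17:56290512-56290761 for Plin3, all on the minus strand), written 5′ to 3′, with the motifs AGGTCA and TATAA in capitals.
Plin5: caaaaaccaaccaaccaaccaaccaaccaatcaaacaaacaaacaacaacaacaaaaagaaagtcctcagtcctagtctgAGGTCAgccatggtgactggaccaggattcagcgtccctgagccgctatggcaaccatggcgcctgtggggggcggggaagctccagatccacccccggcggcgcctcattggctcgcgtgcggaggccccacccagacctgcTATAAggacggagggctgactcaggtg
Plin4: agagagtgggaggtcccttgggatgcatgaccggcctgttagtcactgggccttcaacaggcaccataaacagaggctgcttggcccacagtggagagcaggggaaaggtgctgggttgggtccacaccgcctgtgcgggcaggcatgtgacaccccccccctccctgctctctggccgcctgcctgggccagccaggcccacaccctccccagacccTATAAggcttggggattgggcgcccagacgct
Plin3: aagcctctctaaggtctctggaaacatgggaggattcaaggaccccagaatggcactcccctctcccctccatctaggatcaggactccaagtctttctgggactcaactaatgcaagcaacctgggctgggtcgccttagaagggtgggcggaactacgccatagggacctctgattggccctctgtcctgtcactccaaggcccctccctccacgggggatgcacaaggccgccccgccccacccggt

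In these windows, TATAA, the letters of the TATA motif, stood 27 to 23 bases before the start of Plin5 and 32 to 28 bases before that of Plin4. It was in no window of the other members, among 8 of 10 members with a window, and in 22.78% of all 32851 windows of the same length. Dgat1 and Dgat2 had no window and were not searched, and Plin1 had a window but no ratio. Plin5 also held AGGTCA, the half-site of many nuclear receptors, 170 to 165 bases before its start. The half-site was found on the other strand, as TGACCT, in Plin2 (218 to 213 bases before the start) and Abhd5 (69 to 64 bases before the start), and in 14.02% of all windows. A pair of half-sites spaced by 1 base (AGGTCANAGGTCA, which contains AGGTCA) was in no member window and in 0.03348% of all windows, and the cAMP response element TGACGTCA was in none and in 1.546%. TGTTCT, a half-site of the androgen and glucocorticoid receptors, was in Mgll alone among the members and in 16.08% of all windows, and so was the E-box CACGTG, in 6.021%. Both strands were searched. Another RefSeq start of Plin5 lies downstream of the first, and its window (chr17:56117299-56117548, minus strand) held none of these motifs. The alignment of Plin5 probe set 1424937_at begins at this downstream start, not at the first. The Plin3 window lies inside the alignment of 1416424_at, whose first base is further upstream. The alignment of Plin4 probe set 1418595_at begins at base 56109803, inside the Plin4 window. It thus begins closer to TATAA than the RefSeq start does. Which start is used in these ovaries was not measured. A match of letters is no measure of binding.

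The low Plin4 and Plin5 ratios were not shared by the genes around them. Within 200 kb of the start of the Plin5 alignment, 20 other genes had a probe set. Of the 18 above the floor, 0 passed 1.5-fold, with log2 ratios between -0.31 and 0.38, and the same held for their 24 probe sets above the floor. This window was drawn after the values were seen. On the other side of Plin5 from Plin4 lies Lrg1, which encodes a secreted glycoprotein with leucine-rich repeats and read 41.8 in control and 54.2 in PNA ovaries, a log2 ratio of 0.38. The neighbour Ticam1 of Plin3, a Toll-like receptor adaptor gene, had a log2 ratio of 0.08, and its other neighbour, Arrdc5, was below the floor on both arrays. The genes beside Plin1 had log2 ratios of 0.21 (Kif7) and 0.08 (Pex11a). The neighbours of Plin2 and the tRNA gene beside Plin4 matched no probe set.

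**Figure D3:**
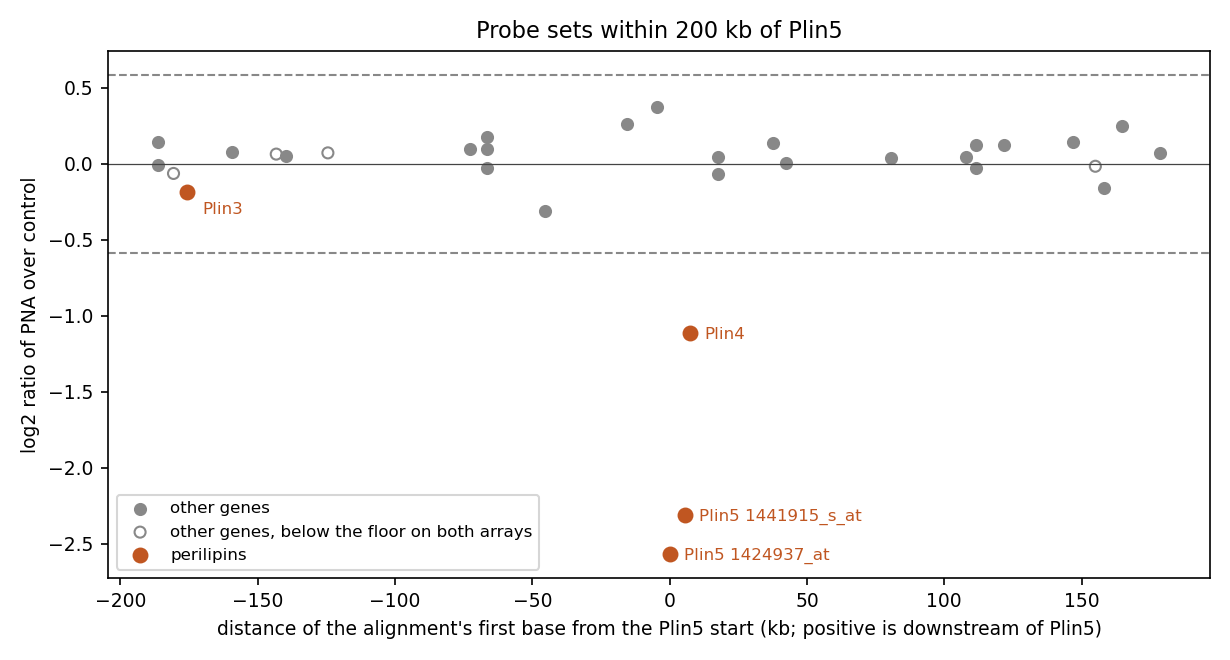
Log2 ratio of PNA over control for each probe set aligned within 200 kb of Plin5, against the distance from the start of the Plin5 alignment (kb, positive downstream), with perilipins in orange and the 1.5-fold limits dashed. Plin4 and both Plin5 probe sets lie below the lower limit, whereas Plin3 and the probe sets of the other 20 genes lie between the limits.

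The genes whose log2 ratio was nearest to that of Plin5 were taken from those above the floor on both arrays, as a measure of likeness over 2 arrays only. D630023F18Rik at -2.69, Gng13 at -2.58 and 1110002E22Rik at -2.48 lay just below Plin5. Diras2 at -2.13, Dpysl4 at -2.08 and Megf10 at -2.07 lay just above it. Gng13 encodes a G protein gamma subunit and Diras2 a small GTPase. The other probe set of 1110002E22Rik read -2.39, whereas those of Gng13 and Diras2 read -0.18 and -0.31. That of D630023F18Rik read -1.14, the 3 of Dpysl4 ran from -2.18 to -1.07, and Megf10 had 1 above the floor.

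None of the lipase, coactivator and acyltransferase genes passed 1.5-fold in either direction. These 5 genes had 13 probe sets, of which 11 were above the floor on both arrays with log2 ratios between -0.29 and 0.21. Pnpla2, the gene of adipose triglyceride lipase, was read by 1428143_a_at (chr7:141455222-141460087, plus strand) at 206 in control and 181 in PNA ovaries, a log2 ratio of -0.19. Its other probe set, 1428591_at, read 15.2 on both arrays, below the floor. Abhd5, whose product releases from perilipins to activate that lipase, read 187 in control and 196 in PNA ovaries on 1417566_at (chr9:122351615-122381524, plus strand), a log2 ratio of 0.07. On 1417565_at it read 168 and 195, a log2 ratio of 0.21, and its remaining probe set, 1447548_at, was below the floor at 5.78 and 6.51. PNA signals were thus slightly below control for the lipase gene and slightly above it for its coactivator, both by far less than the 1.5-fold limit.

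Mgll, the gene of monoglyceride lipase, which also degrades an endocannabinoid, had 4 probe sets above the floor. Its brightest, 1426785_s_at (chr6:88724723-88828360, plus strand), read 190.3 in control and 164 in PNA ovaries, a log2 ratio of -0.21. Probe set 1453836_a_at read 167 and 148 (log2 ratio -0.17), and 1450391_a_at read 127 and 103 (log2 ratio -0.29). The last of them, 1431331_at, read exactly 50.9 on both arrays. The PNA signal was therefore lower on 3 of the Mgll probe sets and equal on 1.

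Dgat1 and Dgat2 encode unrelated enzymes with the same activity. Dgat1 read 316 in control and 308 in PNA ovaries on 1418295_s_at (chr15:76502014-76511967, minus strand), a log2 ratio of -0.04, and 41.6 and 38.9 on 1445229_at, a log2 ratio of -0.10. Dgat2 read 153 and 125 on 1422678_at (chr7:99153660-99182715, minus strand), a log2 ratio of -0.29, and 117 and 105 on 1422677_at, a log2 ratio of -0.15. All 4 DGAT probe sets were lower on the PNA array, by less than 1.5-fold each. Counted by probe set, 3 of the 16 member probe sets above the floor were lower, 0 were higher and 13 lay between, against 2.21% lower and 3.04% higher among all 27721 probe sets above the floor.

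Other genes of droplet metabolism mostly lay between the limits. Of 14 genes of the steps that lead to diacylglycerol, the substrate of the DGATs, 12 were above the floor. Among these, 1 was higher, 0 were lower and the median log2 ratio was -0.03. The higher one was Lpin1, which encodes a phosphatidate phosphatase, at 131 in control and 219 in PNA ovaries with a log2 ratio of 0.74, and its other probe set read 123 and 194 (0.65). Gpam, the gene of a mitochondrial glycerol-3-phosphate acyltransferase, read 4445 and 4424, and Agpat3, an acyltransferase gene of the next step, read 666 and 609. Of 13 other lipases and lipolysis regulators, 9 were above the floor, 1 was higher, 0 were lower and the median was -0.12. Here Pnpla3, a relative of Pnpla2, read 36.4 in control, little above the floor, and 57.6 in PNA ovaries, a log2 ratio of 0.66. The phospholipase gene Pnpla8 had a log2 ratio of -0.19 and the lysophospholipase gene Abhd12 one of 0.09. G0s2, whose product inhibits adipose triglyceride lipase, read 125 on both arrays and was singled out after its value was seen, as was Lipe, the gene of hormone-sensitive lipase. The probe set that names Lipe alone was below the floor, at 9.31 and 6.66, and one that names Lipe together with LOC101055998 read 185 and 184.

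Of 20 genes of droplet formation, fusion and surface, 16 were above the floor, 0 were higher or lower and the log2 ratios ran from -0.16 to 0.40. Hsd17b11, a droplet-bound dehydrogenase gene, read 2422 in control and 2577 in PNA ovaries, and the small GTPase gene Rab18 read 1550 and 1538. Of 43 genes annotated to the lipid particle other than the members, of which 10 are also in the lists above, 35 were above the floor, 1 was higher, 0 were lower and the median was 0.02. The higher one was Rsad2, the gene of the interferon-induced protein viperin, at 57.2 in control and 116 in PNA ovaries, a log2 ratio of 1.03. Anxa2 and Rap1b, an annexin and a small GTPase gene, had log2 ratios of -0.03 and 0.01. Of 11 genes of transcription factors and coactivators known to act on perilipin genes, 10 were above the floor, 0 passed 1.5-fold and the median was -0.09. Among them the retinoid X receptor gene Rxrb read 465 and 463 and Srebf1, a regulator of lipid synthesis, read 416 and 372. The PPAR genes were singled out after their values were seen. Ppara, of fatty acid oxidation, read 79.2 in control and 114 in PNA ovaries on its brightest probe set, a log2 ratio of 0.53, but on 2 dimmer ones the log2 ratio was 0.13 and -0.10. Pparg, of fat storage, read 391 and 308, a log2 ratio of -0.34, and Ppard, found in most tissues, had a log2 ratio of 0.22.

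**Figure D4:**
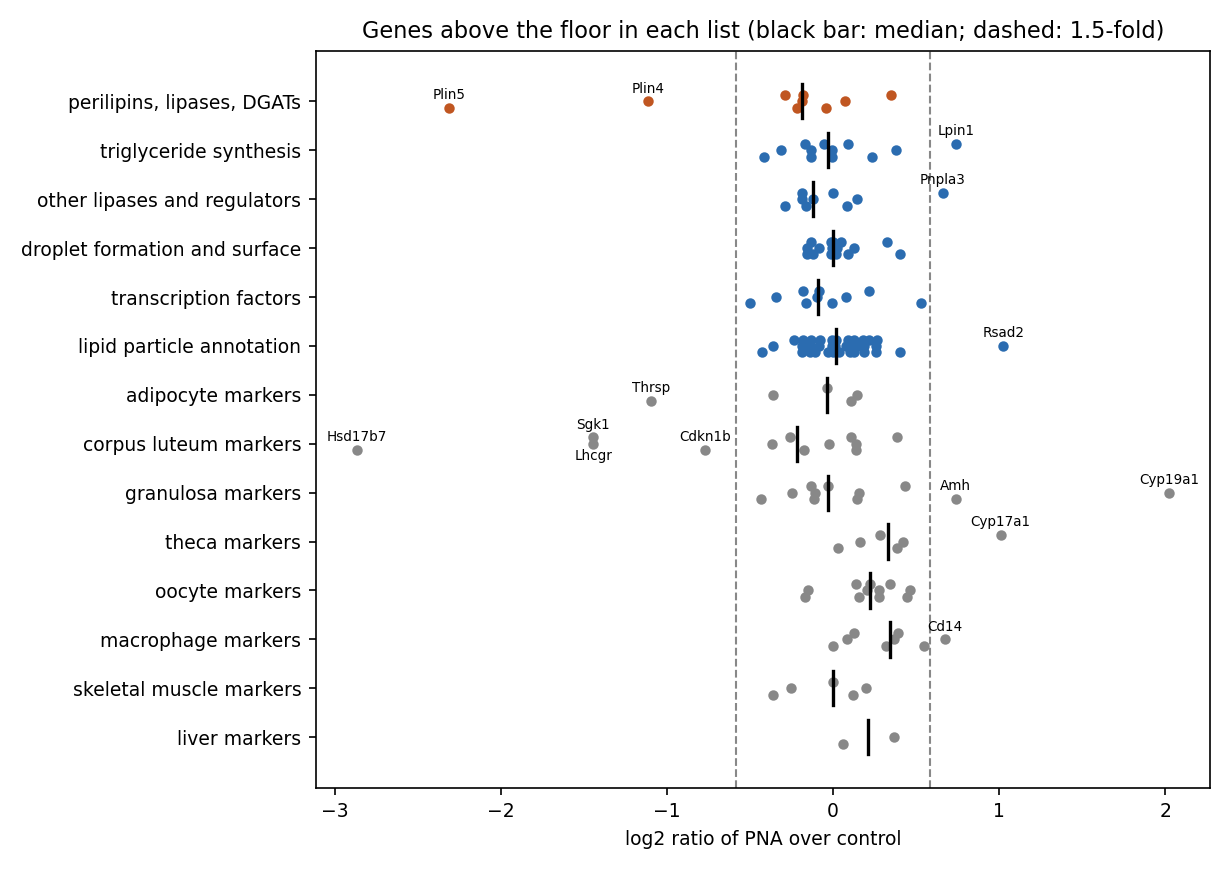
Log2 ratio of PNA over control for every gene above the floor in each list, with members in orange, other droplet genes in blue and cell type markers in grey, black bars at the medians and dashed lines at the 1.5-fold limits. Plin5 and Plin4 lie below the lower limit, where none of the other droplet genes lies, and Thrsp and 4 corpus luteum markers lie there too.

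Markers of cell types that carry droplets were read beside Plin4 and Plin5. The labelled tissue was checked first, and all 11 granulosa, all 11 oocyte and all 6 measured theca markers exceeded the floor on 1 array or both. Of 12 corpus luteum markers, all above the floor, 4 were lower and 0 higher, the median log2 ratio was -0.22, and their signals summed to 77932 for control and 70307 for PNA ovaries. The lower ones were Hsd17b7, of luteal steroid and cholesterol synthesis (4113 and 564, log2 ratio -2.87), Lhcgr, the luteinizing hormone receptor (1246 and 458, -1.44), Sgk1, a kinase (6534 and 2405, -1.44), and Cdkn1b, a cell cycle inhibitor (1641 and 963, -0.77). The steroidogenic genes Star and Cyp11a1 of the same list had log2 ratios of 0.11 and -0.02. Of 12 adipocyte markers, 5 were above the floor, 1 was lower and 0 higher, and the signals of those 5 summed to 507 for control and 465 for PNA ovaries. The defining markers Adipoq and Lep were below the floor on both arrays, and the lower one was Thrsp, a lipogenic gene, at 97.2 and 45.5 (log2 ratio -1.10). Of 9 muscle and 6 liver markers, of tissues rich in Plin5, only 5 and 2 were above the floor, and 0 of these passed 1.5-fold. The 5 muscle markers read at most 50.7 on either array, against a floor of 30.6, and the liver marker Alb was below it. These markers therefore say little about a change in either tissue. Of the 6 theca markers 1 was higher, Cyp17a1, an enzyme of androgen synthesis, with a log2 ratio of 1.01, 0 were lower and the median was 0.33. Of the 11 granulosa markers 2 were higher and 0 lower, with 6 of 11 ratios below 0 and a median log2 ratio of -0.03. The higher ones were Cyp19a1, the gene of aromatase, at 2.02 and Amh at 0.74. Of 8 macrophage markers 1 was higher, Cd14 at 0.68, 0 were lower and the median was 0.34. Of the 11 oocyte markers 0 were higher or lower, with 2 of 11 ratios below 0 and a median log2 ratio of 0.22. The part of these cell types in the ratios of Plin4 and Plin5 was not tested.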

How the data were processed

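RNA from ovaries of PNA and control mice was read on 1 Affymetrix Mouse Genome 430 2.0 array per group, grouped by the treatment in the labels. The authors deposited a linear signal intensity for each of 45101 probe sets, and log2 values centred on the mean of the 2 arrays. No source used here names the software behind these signals or its normalization. The log2 ratios of both tables agreed within 2e-06, and the array medians were 48.7 (control) and 49.5 (PNA). Arrays have no read depth, and their number limits the precision. The deposited fold changes and lists of changed genes hold the authors' own comparison and were not used.

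After 64 control probe sets were left out, log2 ratios were computed in Python 3.11.15 with numpy 2.4.6 and pandas 2.3.3 for 45037 probe sets, of which 38130 name 1 gene. Names were updated by Entrez ID for 35046 of them from the RefSeq table of GRCm38.p6. A gene was its brightest probe set naming it alone. No test was run. The calculation was tested on simulated data.

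The members and lists were chosen with earlier results of these data known. Named were all members with all probe sets, genes of each droplet list past 1.5-fold and up to 2 others that were brightest, the 3 genes on each side of Plin5 in log2 ratio, and the neighbours of perilipin genes. Markers and genes said to be singled out are named besides. Alternatives were median scaling, quantile normalization, loess (fraction 0.3, statsmodels 0.14.6), an offset of 50, 3 filters, a fold change of 2, the series values, and 2 ways to read a gene.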

Additional observations from a re-analysis of the deposited data

How the results depend on the processing

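Under 11 alternatives, Plin5 lay between log2 ratios of -2.57 and -1.93 and Plin4 between -1.14 and -1.06, and both passed 1.5-fold in 11 of 11. Many of these settings could not move the ratios. The 3 filters and the fold change of 2 leave the ratio of a gene above the floor on both arrays as it is. The series values hold the same ratios as the main ones. Plin4 has 1 probe set, so the 2 ways to read a gene could not change it either. The other 7 members passed it in none. All 42 recomputed counts of members and 161 of 165 values of the droplet lists stayed within their tolerance (1.5 times for a count, 0.1 for a median). The exceptions were the higher genes Lpin1 and Pnpla3, whose lists each had 0 higher genes with an offset of 50 or at a fold change of 2. These settings also lowered the counts over all genes from 352 higher and 305 lower to 158 and 161 with the offset, and to 89 and 112 at 2-fold. An offset shrinks ratios of low signals by construction. No paired analysis was possible because each group has 1 array, and for the same reason no replicate could be left out. With 1 array per group, no ratio can be set against the spread between mice.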

Other observations

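The 2 member probe sets with equal readings, Mgll 1431331_at and Pnpla2 1428591_at, were among 2033 of 45037 probe sets (4.51%) with the same deposited signal on both arrays. Thrsp, the lipogenic gene that was lower beside Plin4 and Plin5, had 3 probe sets above the floor, with log2 ratios of -1.10, -0.92 and -0.22. The 3 probe sets of Rsad2 had log2 ratios of 1.03, 0.85 and 1.53, of which the last 2 rested on signals below the floor on the control array.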
